A study of Mus musculus with 6 samples.

Results

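The 10 genes described here, Znhit3, Trim13, Btbd6, Anapc13, Ankra2, Dbi, Wdr20, Tmco3, Arl5c and 2210016F16Rik, were picked on their large shifts between Slit2fl/fl and Slit2th libraries in earlier fits of these same counts, out of 20173 genes in the table. Slit2 itself, the deleted gene, was left out of the set. Because the choice used this contrast, the levels and fold changes of the 10 are given as a description with no test, and what is added is how the 6 libraries lie for each gene, how far each value rests on replicate 1 of either group, and what the partners and neighbours of each gene did. RNA was sequenced from 3 Slit2fl/fl libraries, labelled SLIT2f/f, and 3 Slit2th libraries, labelled SLIT2-knockout, all from mice carrying loxP-flanked Slit2. In Slit2th mice, Cre expressed from the tyrosine hydroxylase (Th) promoter removes Slit2, so deletion is limited to cells that use or have used that promoter. By the RNA-Seq method, sympathetic chains of 3-week-old males were taken into culture for 4 to 5 days. Elsewhere the sequenced material is called ganglions and the isolation protocol is written for dorsal root neurons, while the labels give sympathetic ganglion as tissue and neuron as cell type. No source used here says whether libraries of a group came from separate animals or cultures, so their spread may be technical in part.

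The 10 genes do not belong to a single pathway. Trim13, Btbd6 and Anapc13 encode parts of ubiquitin ligases, the enzymes that attach ubiquitin to proteins and so mark many of them for degradation, and Wdr20 encodes an activator of deubiquitinases, which take ubiquitin off again. Znhit3 acts in the assembly of small nucleolar ribonucleoproteins and 2210016F16Rik in the salvage of a modified tRNA base. Dbi binds acyl-CoA esters, Ankra2 is a scaffold with ankyrin repeats, and Tmco3 and Arl5c belong to families of membrane transport and Golgi traffic.

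Total counts ran from 1255939 to 3155406 per library, and 12152 genes with 1 CPM or more (counts scaled to the library total) in 3 or more libraries were fitted; all 10 members passed. A floor of 3 counts equals 0.951 to 2.39 CPM and allows for counting error alone, because reads carried no molecular identifiers. The Slit2 row held 44.5, 55.1 and 43.8 CPM in replicates 1, 2 and 3 of Slit2fl/fl, and 15.0, 11.5 and 15.2 CPM in those of Slit2th, so the groups lay apart as labelled and transcript remained. Replicate 1 of each group stood apart from the rest: across genes, log2 CPM of replicates 2 and 3 correlated at 0.938 in Slit2fl/fl and 0.965 in Slit2th, whereas replicate 1 correlated with its own group at 0.842 to 0.869. Of 17 sympathetic neuron markers in the table, Th and Chga had no count in any library, and the summed level of the list was 201 to 592 CPM in Slit2fl/fl against 202 to 215 CPM in Slit2th. The glial list summed to 6040 to 11960 CPM in Slit2fl/fl against 13553 to 20244 CPM in Slit2th. The neuronal tubulin gene Tubb3, highest of this list on average, was at 75.0 to 290.1 CPM. Slc18a2, the vesicular monoamine transporter gene, singled out here after its values were seen, was above the floor in every library, at 4.48 to 11.9 CPM in Slit2fl/fl against 13.2 to 17.5 CPM in Slit2th. Slc18a2 was not typical of its list. Of the 5 neuron markers tested, it alone had a positive log2 fold change (Slit2th over Slit2fl/fl). The other 4, Tubb3 included, had negative values, and the median of the list was -0.62. In bulk RNA fewer cells of a type and less RNA per cell cannot be told apart.

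With edgeR's quasi-likelihood test over all 6 libraries, 0 of the 12152 genes passed an adjusted p of 0.05 (0%, smallest adjusted p = 0.357), the members included. DESeq2 called 34 of these genes, among them all 10 members, which had been chosen on this same contrast. Without adjustment, 485 genes (3.99% of those tested) were higher in Slit2th at a p under 0.05 and 824 (6.78%) were lower, and all 10 members were among the 100 genes with the smallest p, at places 1 to 94, as their selection on this contrast would give. In Slit2th, 7 of the members were lower (Znhit3, Trim13, Btbd6, Anapc13, Ankra2, Dbi and 2210016F16Rik) and 3 were higher (Wdr20, Tmco3 and Arl5c). The groups did not overlap for any of the 10, in a table where that held for 1062 genes in the higher direction (8.74%) and 1181 in the lower (9.72%). With replicate 1 of both groups set aside, the 2 remaining libraries of each group again did not overlap for any of the 10. This had to follow, since removing libraries cannot make separated groups overlap. The looser criterion was met by 2852 genes in the higher direction (23.5%) and 2933 in the lower (24.1%). All 10 were also among the 377 of 11473 genes (3.29%) that passed the adjusted threshold without replicate 1, a fit that shares its libraries with the choice of members.

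**Figure D1:**
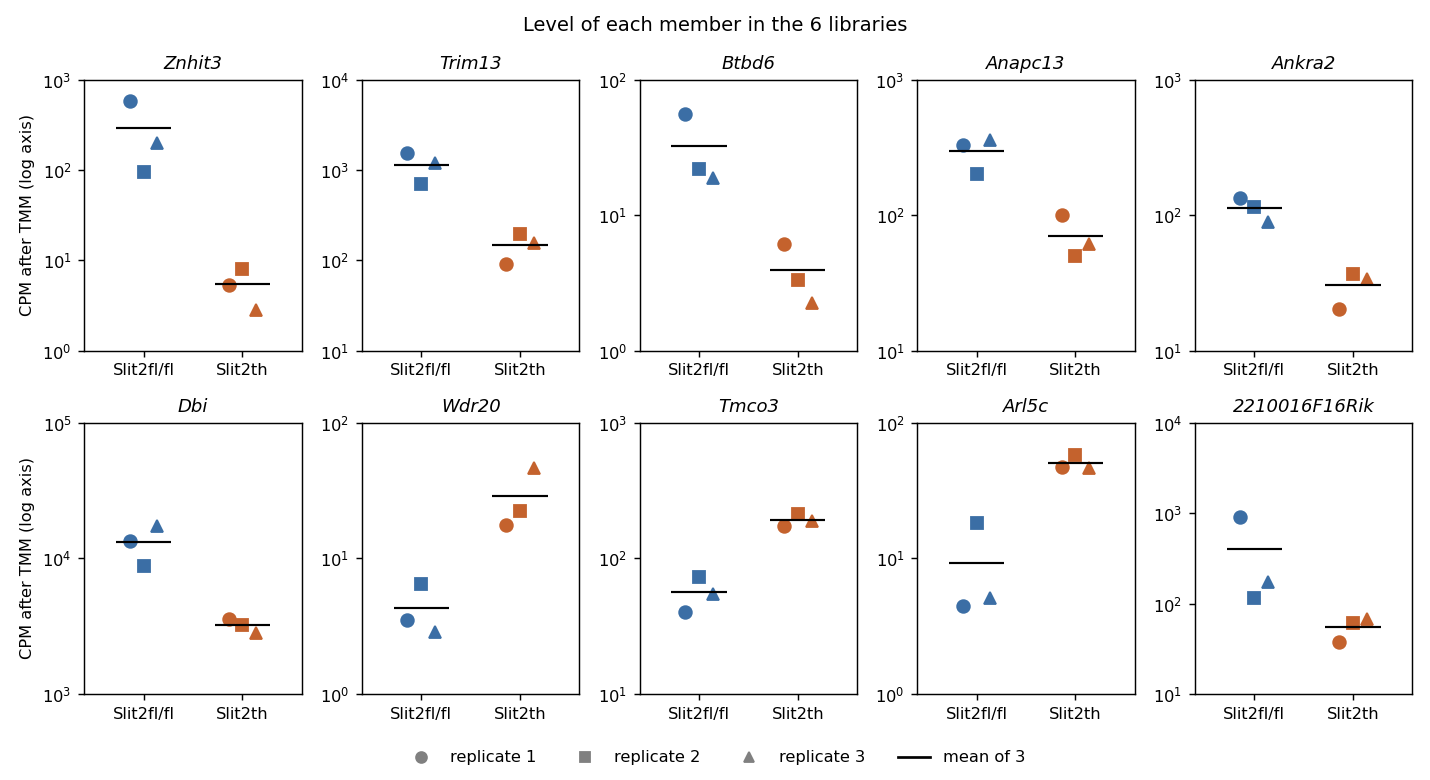
CPM after TMM scaling (log axis) of each member in the 6 libraries, with circles, squares and triangles for replicates 1, 2 and 3, Slit2fl/fl in blue and Slit2th in orange, and a black bar for the mean of 3. In each of the 10 panels the 3 Slit2th points lie on 1 side of the 3 Slit2fl/fl points; the circle of Slit2fl/fl replicate 1 lies far above its group for 2210016F16Rik, at 920.3 CPM.

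To show where members of both directions carry like sequence, the 100 bases upstream of the RefSeq start (build GRCm38.p6, 5′ to 3′ on the gene's strand) are printed for 3 of them that hold the core of the NRF1 motif, searched as CGCANGCG, and for Trim13, the only member of those searched with a TATA box, searched as TATAAA. RefSeq windows of 300 bases around the start were matched for 8 of the 10 members; Znhit3 and Arl5c were not matched. Capitals mark matches on either strand to these motifs or to a CCAAT box (CCAAT), a GC box (GGGCGG), an ETS motif (CCGGAAG), a CRE core (TGACG), an E-box (CACGTG) or a YY1 core (AAGATGG), and no matches overlap in these lines.
Dbi (chr1:120121097-120121196, minus strand): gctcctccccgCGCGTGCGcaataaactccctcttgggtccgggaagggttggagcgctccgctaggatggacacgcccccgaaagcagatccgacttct
Ankra2 (chr13:98262976-98263075, plus strand): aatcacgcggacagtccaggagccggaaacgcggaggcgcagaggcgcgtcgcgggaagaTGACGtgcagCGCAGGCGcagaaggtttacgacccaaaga
Wdr20 (chr12:110737900-110737999, plus strand): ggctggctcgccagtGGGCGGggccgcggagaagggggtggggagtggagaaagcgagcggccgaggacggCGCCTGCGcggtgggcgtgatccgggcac
Trim13 (chr14:61598126-61598225, plus strand): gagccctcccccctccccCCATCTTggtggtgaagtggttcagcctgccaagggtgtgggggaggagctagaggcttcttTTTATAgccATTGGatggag
In full windows the NRF1 core was found in 3 of 8 members, the lower members Dbi and Ankra2 and the higher member Wdr20, and in 8.21% of all 32851 RefSeq windows. The GC box was in 5 of 8 (35.7% of all windows), the CRE core in 4 (20.8%), the CCAAT box in 2 (37.4%), the YY1 core in 2 (6.34%), and the TATA box (13.6%), the ETS motif (8.86%) and the E-box (7.15%) in 1 each. These are letter matches only, and no factor's binding was measured.

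Among the ligase genes, Trim13 and Anapc13 were abundant and Btbd6 was not. Trim13 encodes a RING-type ubiquitin ligase anchored in the endoplasmic reticulum. Its counts were 4881, 1078 and 2093 in Slit2fl/fl against 104, 406 and 279 in Slit2th, or 1563, 699 and 1190.0 CPM against 91.8, 194 and 157 CPM. The lowest Slit2fl/fl library was 3.61 times the highest Slit2th library, with or without replicate 1, because replicate 2 was at the near edge of both groups. The means were 1151 ± 433 and 148 ± 51.7 CPM (SD, n = 3), and the log2 fold change was -2.96 (SE 0.45), or -2.44 (SE 0.24) without replicate 1. Trim13 (ENSMUSG00000035235) lies on chromosome 14, 61598247-61605946 on the plus strand of GRCm38. It overlaps the gene body of the non-coding RNA gene Dleu2, whose own log2 fold change was 1.13 (SE 0.47). The processed pseudogene Gm9359 shares 95.9% identity with Trim13 over 1230 bases and was not analysed here, so reads from one could have been counted for the other.

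Anapc13 encodes a small subunit of the anaphase-promoting complex (APC/C), the ligase that drives exit from mitosis. Its counts were 1027, 313 and 629 in Slit2fl/fl against an almost even 114, 104 and 109 in Slit2th, or 329, 203 and 358 CPM against 101, 49.6 and 61.5 CPM. Slit2th replicate 1 was the highest of its group, and the gap between the groups widened from 2.02 times to 3.30 times when replicate 1 was set aside. The means were 296 ± 82.3 and 70.6 ± 26.7 CPM (SD, n = 3), and the log2 fold change was -2.07 (SE 0.41), or -2.35 (SE 0.27) without replicate 1. Anapc13 (ENSMUSG00000035048; chromosome 9, 102626296-102634425, plus strand) shares 239 exonic bases with Cep63 on the opposite strand, and Cep63, with a log2 fold change of -0.39 (SE 0.49), held 12 to 78 counts per library.

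Btbd6 encodes a BTB-domain adaptor that brings substrates to Cullin-3 ligases. It was counted 175, 34 and 33 times in Slit2fl/fl against 7, 7 and 4 times in Slit2th, or 56.0, 22.04 and 18.8 CPM against 6.18, 3.34 and 2.26 CPM. Replicate 1 was the highest library in both groups, the groups did not overlap, and the gap was 3.04 times with it and 5.62 times without it. All Slit2th counts were close to the floor of 3, so the size of this difference is known only roughly: the log2 fold change was -3.09 (SE 0.62), or -2.83 (SE 0.53) without replicate 1 and -2.41 without Slit2fl/fl replicate 1 alone, from means of 32.3 ± 20.6 and 3.93 ± 2.02 CPM (SD, n = 3). Btbd6 (ENSMUSG00000002803; chromosome 12, 112976482-112978945, plus strand) is overlapped by Brf1, which had a log2 fold change of -1.11 (SE 0.60).

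Znhit3 showed the widest separation of the 10. It encodes a zinc-finger HIT protein that, with Nufip1, helps assemble box C/D small nucleolar ribonucleoproteins, the particles that guide methylation of ribosomal RNA. Its counts were 1835, 147 and 352 in Slit2fl/fl against 6, 17 and 5 in Slit2th, or 588, 95.3 and 200.1 CPM against 5.30, 8.11 and 2.82 CPM. Slit2fl/fl replicate 1 was 6.17 times replicate 2 of the same group, yet the lowest Slit2fl/fl library still lay 11.7 times above the highest Slit2th library, and replicate 1 set neither edge. The means were 294 ± 259 and 5.41 ± 2.65 CPM (SD, n = 3), and the log2 fold change was -5.74 (SE 0.79), the 7th largest of 12152 in size, or -4.71 (SE 0.44) without replicate 1 and -4.73 without Slit2fl/fl replicate 1 alone. Znhit3 (ENSMUSG00000020526) lies on chromosome 11, 84910950-84916366 on the minus strand, and shares 277 exonic bases with Myo19 on the opposite strand, which had at most 2 counts in any library.

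Dbi, the diazepam-binding inhibitor or acyl-CoA-binding protein, is a small cytosolic carrier of acyl-CoA esters that is abundant in glia and is also cut into peptides acting on GABA receptors. Counted 41948, 13589 and 30471 times in Slit2fl/fl against 4025, 6741 and 5029 times in Slit2th, it was the member with the smallest counting error. Its levels were 13432, 8808 and 17324 CPM against 3552, 3216 and 2838 CPM, so the 3 Slit2th libraries lay within 1.25 times of each other and the 3 Slit2fl/fl libraries within 1.97 times. The gap was 2.48 times, and 2.74 times without replicate 1. The means were 13188 ± 4264 and 3202 ± 357 CPM (SD, n = 3), and the log2 fold change was -2.04 (SE 0.39), or -2.12 (SE 0.25) without replicate 1. While Dbi was lower in Slit2th, the summed glial markers were higher, and the part of cell makeup in its level was not tested. Dbi (ENSMUSG00000026385) occupies 120113280-120121078 on the minus strand of chromosome 1.

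Ankra2 encodes an ankyrin-repeat protein, a paralog of the transcription regulator Rfxank, that binds class IIa histone deacetylases and the receptor megalin. Its counts were 420, 178 and 156 in Slit2fl/fl against 23, 77 and 60 in Slit2th, or 134, 115 and 88.7 CPM against 20.3, 36.7 and 33.9 CPM. It was the evenest of the 7 lower members within Slit2fl/fl, where the highest library was 1.52 times the lowest, and the gap of 2.41 times was set by replicates 2 and 3. From means of 113 ± 23.0 and 30.3 ± 8.78 CPM (SD, n = 3), the log2 fold change was -1.89 (SE 0.38), or -1.54 (SE 0.25) without replicate 1, whose Slit2th library was the lowest. Ankra2 (ENSMUSG00000021661) lies at 98263074-98274754 on the plus strand of chromosome 13, and its neighbour Utp15, only 33 bases away, had a log2 fold change of 0.38 (SE 0.55).

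The gene 2210016F16Rik was the member that rested most on a single library. It is the mouse counterpart of a human enzyme that frees the base queuine for its insertion into tRNA as queuosine. Its counts were 2874, 177 and 306 in Slit2fl/fl against 43, 127 and 119 in Slit2th, or 920.3, 115 and 174 CPM against 37.9, 60.6 and 67.2 CPM. Slit2fl/fl replicate 1 was 8.02 times replicate 2 and Slit2th replicate 1 was the lowest library, so replicate 1 lay at the outer end of both groups. The log2 fold change was -2.86 (SE 0.76) over 6 libraries and -1.19 (SE 0.24) without replicate 1, or -1.38 without Slit2fl/fl replicate 1 alone, and the same-number ratios, Slit2th over Slit2fl/fl, were -4.60, -0.92 and -1.37 on the log2 scale. The groups still did not overlap, with a gap of 1.71 times that replicates 2 and 3 set on their own, the narrowest of the 10. The means of 403 ± 449 and 55.2 ± 15.3 CPM (SD, n = 3) carry an SD larger than the Slit2fl/fl mean itself. The gene (ENSMUSG00000021550) lies on chromosome 13, 58379817-58385225, minus strand.

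Of the 3 higher members, Tmco3 had the best-counted values. It encodes a multipass membrane protein of the cation/proton antiporter family. Its counts were 126, 113 and 96 in Slit2fl/fl against 197, 443 and 336 in Slit2th, or 40.3, 73.2 and 54.6 CPM against 174, 211 and 189.6 CPM. The 3 Slit2th libraries lay within 1.22 times of each other, all above the 3 Slit2fl/fl libraries, and the gap was 2.37 times, or 2.59 times without replicate 1. The means were 56.1 ± 16.5 and 192 ± 18.8 CPM (SD, n = 3), and the log2 fold change was 1.78 (SE 0.35), or 1.64 (SE 0.23) without replicate 1. Tmco3 (ENSMUSG00000038497; chromosome 8, 13288190-13322924, plus strand) lies 59 bases from Dcun1d2, which had a log2 fold change of -0.04 (SE 0.50). Stretches of 171 and 132 bases of its exons match Ccdc14 and Itsn1 at 95% identity or more, a small part of its 8393 exonic bases.

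Wdr20 encodes a WD40-repeat protein that activates the deubiquitinases USP12 and USP46. It had few counts, 11, 10 and 5 in Slit2fl/fl against 20, 47 and 82 in Slit2th, or 3.52, 6.48 and 2.84 CPM against 17.7, 22.4 and 46.3 CPM. Slit2th replicate 3 was 2.62 times replicate 1 of its group, the groups did not overlap, and the gap was 2.72 times, or 3.46 times without replicate 1. The means were 4.28 ± 1.93 and 28.8 ± 15.3 CPM (SD, n = 3), and the log2 fold change was 2.76 (SE 0.56), or 2.86 (SE 0.52) without replicate 1. Wdr20 (ENSMUSG00000037957; chromosome 12, 110737944-110804238, plus strand) shares 95.05% identity over 1777 bases with its retrogene Wdr20rt, which was not analysed here, so these low counts could hold reads of either gene.

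Arl5c encodes an ARF-like small GTPase whose paralogs Arl5a and Arl5b recruit the GARP tethering complex to the Golgi. Its counts were 14, 28 and 9 in Slit2fl/fl against 54, 122 and 82 in Slit2th, or 4.48, 18.1 and 5.12 CPM against 47.7, 58.2 and 46.3 CPM. Slit2fl/fl replicate 2 stood 4.05 times above replicate 1 of its group and alone set the gap of 2.55 times, while the Slit2th libraries lay within 1.26 times of each other. The means were 9.25 ± 7.71 and 50.7 ± 6.52 CPM (SD, n = 3), and the log2 fold change was 2.49 (SE 0.58), or 2.18 (SE 0.44) without replicate 1 and 3.40 without Slit2fl/fl replicate 2 alone. Arl5c (ENSMUSG00000038352) lies on chromosome 11, 97989578-97996181, minus strand.

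**Figure D2:**
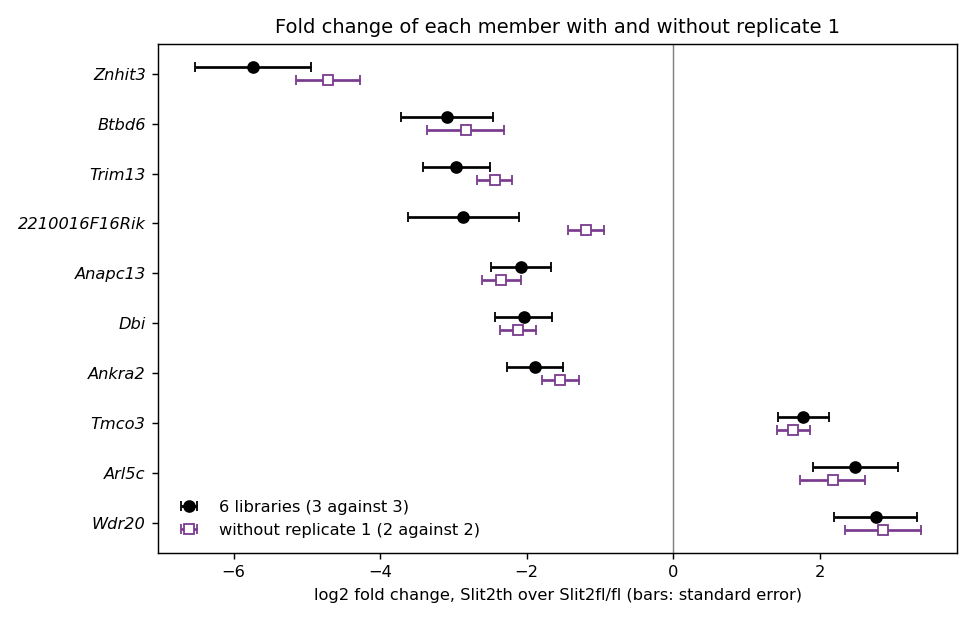
Log2 fold change of each member (Slit2th over Slit2fl/fl, horizontal axis) from edgeR's fit to 6 libraries (black circles) and without replicate 1 of both groups (open squares), with bars for the standard error. The pairs lie close together except for 2210016F16Rik, which moves from -2.86 to -1.19, and Znhit3, from -5.74 to -4.71.

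Read side by side, the members differed in how the groups were kept apart. The gap between the nearest libraries was over 2 times for 9 of the 10, both in 6 libraries and in replicates 2 and 3; among all tested genes such a gap was found for 193, or 1.59%, in 6 libraries and for 5.22% in replicates 2 and 3, and the median gap of all genes with separated groups was 1.19. For Znhit3, Trim13, Ankra2, Arl5c and 2210016F16Rik the gap was the same with and without replicate 1, since replicates 2 and 3 set it, and for Btbd6, Anapc13, Dbi, Wdr20 and Tmco3 it was wider without. Setting libraries aside can only keep or widen this gap, so that it did not narrow was fixed in advance for every member. In each of the 3 same-number comparisons, all 7 lower members were lower and all 3 higher members were higher in the Slit2th library, as groups without overlap must be. The smallest absolute log2 fold change among the members was that of Tmco3, at 1.78, against a median of 0.55 over all tested genes.

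**Figure D3:**
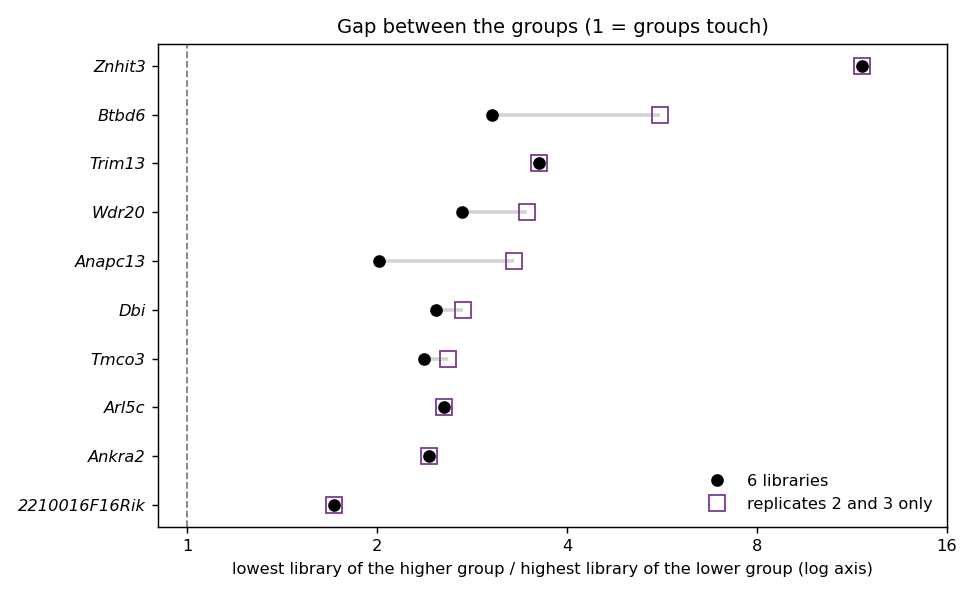
Gap between the groups for each member, the lowest library of the higher group divided by the highest library of the lower group (log axis), in 6 libraries (black circles) and in replicates 2 and 3 only (open squares); the dashed line at 1 is where groups would touch. All members lie to the right of the line, from 1.71 for 2210016F16Rik to 11.7 for Znhit3.

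Divided by merged exon length, the order of levels in Slit2fl/fl was Dbi at 9274 CPM per kilobase, Trim13 at 697, Znhit3 at 138, 2210016F16Rik at 132, Anapc13 at 125, Ankra2 at 24.4, Btbd6 at 13.9, Tmco3 at 6.68, Arl5c at 4.46 and Wdr20 at 0.766. Library ranges overlapped between each pair of neighbours from Znhit3 to Anapc13 and from Ankra2 to Arl5c in this order, so those places are not settled, whereas Dbi, Trim13 and Wdr20 stood clear. In Slit2th the order was Dbi at 2252 CPM per kilobase, Trim13 at 89.5, Anapc13 at 29.7, Arl5c at 24.5, Tmco3 at 22.8, 2210016F16Rik at 18.1, Ankra2 at 6.55, Wdr20 at 5.15, Znhit3 at 2.53 and Btbd6 at 1.69. There, Dbi and Trim13 stood clear and library ranges overlapped between neighbours from Anapc13 to 2210016F16Rik and from Ankra2 to Btbd6. Znhit3 lay above Ankra2 in every Slit2fl/fl library and below it in every Slit2th library on this scale.

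The 7 lower members had short annotated transcripts, with a median merged exon length of 2324 bases (1422 to 4624) against 4578 bases over all tested genes, and 6 of them lay at length percentiles from 6.64 for Dbi to 28.3 for 2210016F16Rik, with Ankra2 at 50.6. The 3 higher members were mixed, with 8393 bases for Tmco3, 5593 for Wdr20 and 2073 for Arl5c. In the table as a whole, tested genes with a log2 fold change below -1 had a median of 3486 bases and those above 1 had 4397 bases. Both medians were under that of all tested genes, the first by more. GC content of the lower members, with a median of 47.45%, was near the 48.8% of all tested genes, while all genes below -1 had a median of 53.65%. The part of transcript length in the members' values was not tested.

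Neighbouring genes were evenly split. Of the 20 nearest tested genes on either side, 10 had the sign of their member and 10 the opposite, and none passed the adjusted threshold in edgeR's quasi-likelihood test. At an unadjusted p under 0.05 there was 1, Nudt14 beside Btbd6, with a log2 fold change of -3.43 (SE 1.07, adjusted p = 0.422). The overlapping genes Dleu2, Brf1 and Cep63 were not among these 20. Of them, Dleu2 also had an unadjusted p under 0.05 in that test, at 1.13 (SE 0.47, adjusted p = 0.450), opposite in sign to Trim13. Brf1 and Cep63 had the sign of their members and did not reach that level. Genes at short distances had smaller values than their member: 3110009E18Rik, 109 bases from Dbi, had -0.39 (SE 0.45), and Kcnrg, 1511 bases from Trim13, had -0.41 (SE 0.92).

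Of 92 known partners or relatives of the members in the table, 85 were tested and 0 passed the adjusted threshold in edgeR's quasi-likelihood test. At an unadjusted p under 0.05, 2 were higher (2.35%, against 3.99% of all tested genes) and 7 were lower (8.24%, against 6.78%). Their median log2 fold change was -0.29, against -0.05 over all tested genes, with 55 negative and 30 positive values. The groups did not overlap for 6 partners in the higher direction (7.06%, against 8.74%) and 14 in the lower (16.5%, against 9.72%).

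**Figure D4:**
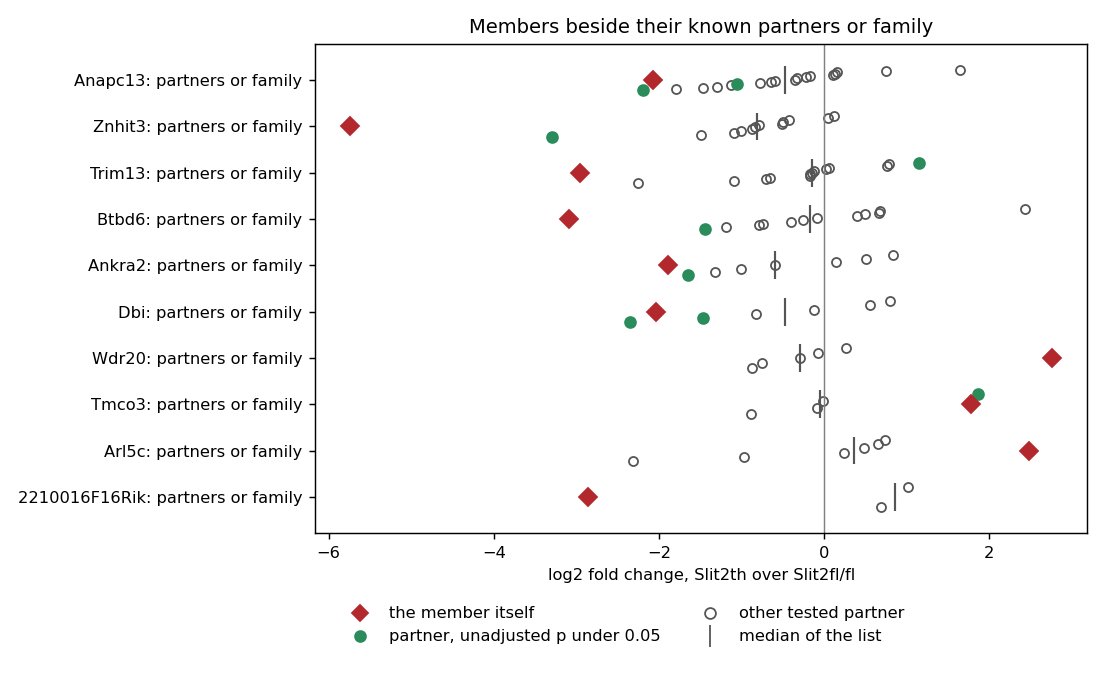
Log2 fold change (Slit2th over Slit2fl/fl) of each member (red diamonds) and of the tested genes in its list of partners or relatives (circles, filled green at an unadjusted p under 0.05), with a vertical tick at each list's median. List medians lie between -0.81 for the partners of Znhit3 and 0.85 for those of 2210016F16Rik, nearer to 0 than every member.

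Among 18 other genes of the APC/C, its activators, its inhibitor Fbxo5 and its ubiquitin-conjugating enzymes, 13 had negative values. The median log2 fold change was -0.47, against -2.07 for Anapc13. An unadjusted p under 0.05 was reached by 2, Ube2s, a ubiquitin-conjugating enzyme of the complex, at -2.20 (SE 0.85, adjusted p = 0.431), and the catalytic subunit gene Anapc2, at -1.05 (SE 0.45, adjusted p = 0.459), which without replicate 1 was -0.44. Anapc5, a large scaffold subunit with the highest CPM of the list averaged over the 6 libraries, had -0.34 (SE 0.56), and -0.93 without replicate 1. Proliferation markers, of which Top2a had the highest mean level, had lower values alongside: all 11 had negative values, 7 with separated groups, and their sum was 445 to 474 CPM in Slit2fl/fl against 153 to 277 CPM in Slit2th; their part in the Anapc13 difference was not tested.

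The genes around Znhit3 in snoRNP assembly had the lowest list median, -0.81 over 12 genes, of which 10 were negative. The helicase gene Ruvbl1 was at -3.29 (SE 1.26, adjusted p = 0.430), but this rested on Slit2fl/fl replicate 1, at 65.3 CPM with all other libraries between 1.69 and 3.24 CPM, and the value was -0.09 without replicate 1. The core protein gene Nop58 had -0.79 (SE 0.36) and the related HIT-finger gene Znhit1 -0.88 (SE 0.92). Nufip1, the direct partner of Znhit3, was at 0.12 (SE 0.50), picked out here for that role. The row Gm42418, which collects reads of ribosomal RNA, held 3619 to 10962 CPM in Slit2fl/fl against 511 to 827 CPM in Slit2th, and ribosomal protein genes took 5.02% to 5.78% and 3.21% to 4.40% of counts; their relation to Znhit3 was not tested.

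Beside Trim13, 13 ligases and other genes of protein degradation at the endoplasmic reticulum had a median of -0.14, with 5 positive and 8 negative values. The ubiquitin receptor gene Sqstm1 had 0.06 (SE 0.39) and the ATPase gene Vcp -0.65 (SE 0.53). For Btbd6, the 12 BTB adaptors and Cullin-3 partners had a median of -0.17. Rbx1, the RING subunit of Cullin ligases, was at -1.45 (SE 0.64, adjusted p = 0.462) with overlapping groups, and it was the 1 partner of any list that passed the adjusted threshold without replicate 1, at -1.51 (adjusted p = 0.00689). Cul3 itself had 0.40 (SE 0.41) and the adaptor gene Spop 0.66 (SE 0.41).

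The acyl-CoA-binding relatives of Dbi went in both directions, with 2 positive and 4 negative of 6 tested. Acbd6 was at -2.35 (SE 0.69, adjusted p = 0.422), with 213, 33.7 and 44.3 CPM in Slit2fl/fl against 21.2, 17.2 and 19.2 CPM in Slit2th, and at -1.12 without replicate 1. Tspo, the mitochondrial outer-membrane protein to which Dbi peptides bind, was at -1.47 (SE 0.55, adjusted p = 0.429) and at -0.61 without replicate 1. The peroxisomal tether gene Acbd5 had 0.79 (SE 0.37). For Ankra2, 7 partners were tested with a median of -0.59; Cul7 had -1.65 (SE 0.70, adjusted p = 0.459), or -0.88 without replicate 1, Hdac4 had 0.14 (SE 0.41) and Obsl1 had 0.50 (SE 0.70).

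The partners of the 3 higher members did not have a common direction. The USP12/USP46 group of Wdr20 had 1 positive and 4 negative values, with Usp46 at -0.08 (SE 0.35), Usp12 at 0.27 (SE 0.72) and the related deubiquitinase gene Usp1 at -0.29 (SE 0.44). Of 4 antiporter genes tested beside Tmco3, Slc9a9, an exchanger of endosomes, was at 1.87 (SE 0.58, adjusted p = 0.422), with 24.7, 8.59 and 18.1 CPM against 3.52, 7.13 and 3.41 CPM, while Slc9a8 had -0.89 (SE 0.75). In the list of Arl5c, 4 of 6 were positive, among them Arl5a at 0.24 (SE 0.35), Arl5b at 0.73 (SE 0.40) and the GARP subunit gene Vps54 at 0.48 (SE 0.42). The genes Qtrt1 and Qtrt2, whose products insert queuine into tRNA and were listed beside 2210016F16Rik, had 0.69 (SE 0.82) and 1.01 (SE 0.72), the opposite sign to that member.

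For each member, the gene with the most similar log2 CPM over the 6 libraries was sought among all other tested genes, as a description over few points that share their libraries. These were Psma7 for Znhit3 (Pearson's r = 0.992), Tprgl for Trim13 (0.998), Cib2 for Btbd6 (0.997), Wdr43 for Anapc13 (0.996), Apbb2 for Ankra2 (0.996), Apip for Dbi (0.995), Ccdc71 for Wdr20 (0.991), Cttnbp2 for Tmco3 (0.993), Sox6 for Arl5c (0.996) and Usp3 for 2210016F16Rik (0.998). The likeness is one of shape, since Psma7, a proteasome subunit gene, held 1270.4 to 2306 CPM in Slit2fl/fl against 518 to 657 CPM in Slit2th, a far smaller relative difference than that of Znhit3.

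Ranges of the other cell type lists overlapped between the groups. The macrophage list summed to 34.1 to 129 CPM in Slit2fl/fl against 127 to 672 CPM in Slit2th, with Slit2th replicate 1 highest, and the fibroblast list to 2659 to 3810 CPM and 3622 to 5444 CPM. Endothelial and mural markers summed to 35.8 to 116 CPM in Slit2fl/fl against 27.4 to 48.5 CPM in Slit2th. Gene by gene, all 10 tested macrophage markers and 8 of 9 fibroblast markers had positive log2 fold changes. Of the 6 endothelial and mural markers tested, 5 had negative values. Among all 12152 tested genes, 5805 had positive values. Mitochondrially encoded genes took 4.68% of counts in Slit2fl/fl replicate 1, the library highest for Znhit3, Trim13, Btbd6, Ankra2 and 2210016F16Rik, and 11.1% to 13.96% in the other 5. The part of cell makeup and mitochondrial share in the members' values was not tested.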

How the data were processed

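The authors prepared libraries with a TruSeq kit, aligned reads with HISAT2 to mm10 (the labels' processing notes list GRCm39) and deposited whole-number read counts per gene, not normalized; the counting program, strand setting and annotation release are not given in the sources used here. From the deposited counts, genes reaching 1 CPM in 3 or more libraries were kept, scaled by TMM and compared with edgeR 4.0.16 (R 4.3.3), using the quasi-likelihood test with Benjamini-Hochberg adjustment and a threshold of 0.05. The standard error (SE) is the absolute log2 fold change over the square root of F. The members, partner and marker lists were chosen with earlier results of these data known. Named genes were the members, Slit2, Th, up to 3 per partner list (unadjusted p under 0.05 first, then mean CPM), nearest neighbours, the most similar gene per member and 1 per marker list. Some genes that this rule names are not reported here. Positions come from GENCODE M21 (GRCm38), matched by identifier for 20159 genes; copies from BLAST+ 2.17.0 at 95% identity over at least 100 bases. The fit was tested on simulated data. Alternatives were DESeq2 1.42.0, limma 3.58.1, other scalings and filters, a replicate block and left-out libraries.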

Additional observations from a re-analysis of the deposited data

How the results depend on the processing

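The number of genes past the adjusted threshold was 0 of 12152 in 6 libraries with edgeR's quasi-likelihood test (1309 at an unadjusted p under 0.05) and 34 with DESeq2. The 34 included all 10 members, as their selection on this contrast in the same counts would give. It was 7 with no filter on low counts, and from 0 to 377 when libraries were left out. The 377 came without replicate 1 of both groups, and 1 came without Slit2fl/fl replicate 1. The unadjusted count ran from 823 to 1999 over the left-out libraries, with 823 without Slit2th replicate 3, 839 without Slit2th replicate 2, 874 without Slit2fl/fl replicate 1 and 1999 without replicate 1. Partner genes past the adjusted threshold were 0 to 1 over the left-out libraries, and partners at an unadjusted p under 0.05 were 5 to 14, with 5 without Slit2fl/fl replicate 1 and 14 without Slit2fl/fl replicate 2, against 9 in 6 libraries. The cause of these moves was not tested. The replicate number as a block gave 0 genes past the adjusted threshold and 1614 at an unadjusted p under 0.05; deviations of same-numbered libraries correlated at 0.29, 0.24 and 0.08, which does not establish a pairing.

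The groups of all 10 members did not overlap under any of the 9 alternatives that rescaled or left out libraries. Leaving out libraries cannot by itself make separated groups overlap, so only the rescaling could have changed this outcome. Of 140 alternative log2 fold changes of members, 0 changed sign and 136 moved by less than 1 SD of the replicates; the 4 others were 1 for Znhit3, 1 for Arl5c and 2 for 2210016F16Rik. The widest ranges were -6.19 to -4.71 for Znhit3, 2.13 to 3.40 for Arl5c and -3.33 to -1.19 for 2210016F16Rik. Depth limits Btbd6, Znhit3, Wdr20 and Arl5c most, with 4 to 9 counts in their lowest libraries.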
